A study of Mus musculus with 2 samples.

Results

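The 10 genes given here mark T cells, and their open chromatin is described here in myeloid progenitors. They are Cd3e, Cd3d, Cd3g, Cd4, Cd8a, Cd28, Thy1, Tcf7, Lef1 and Bcl11b, taken as a named set out of 21755 protein-coding genes (autosomes and chromosome X). Accessible regions were taken as theirs where the summit lay in the gene body or within 50 kb of it, which gave 71 of the 75148 regions of the series-level list. The cells were granulocyte monocyte progenitors (GMP), the bone marrow precursors of neutrophils and monocytes, from C57BL/6J male mice of 5 to 6 weeks with no treatment or engineered allele named in the labels. Accessibility was mapped by ATAC-seq, in which the Tn5 transposase cuts open DNA, in 2 replicates of 50000 cells each. The replicates carry separate biosample identifiers and the same donor label. The sources used here do not say how GMP were isolated, and they name sequencing instruments for replicate 1 only. There is 1 group and no other condition, so every value is a description set beside all genes or all regions, without a test. A region missing from a list is one that did not pass its threshold.

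Cd3e, Cd3d and Cd3g encode the CD3 chains that carry the T cell receptor's signal into the cell. Cd4 and Cd8a encode the co-receptors that bind the MHC molecules, Cd28 the main costimulatory receptor, and Thy1 a membrane-anchored glycoprotein that coats mouse T cells and is also found on other cell types. Tcf7 (TCF-1), Lef1 and Bcl11b are DNA-binding factors: TCF-1 and LEF-1 are related proteins that act early and repeatedly in thymocytes, and Bcl11b is needed for commitment to the T lineage. Lef1 is also known from the maturation of granulocytes in humans. T cells form in the thymus from progenitors that keep lymphoid potential, which GMP are known to have largely lost.

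The regions whose bases bear on the results are shown first, with 50 bases on each side of the summit, on the plus strand of mm10. Capitals mark matches to short words, searched on both strands. The TCF/LEF words were CTTTGAA and CTTTGAT, for the factors that Tcf7 and Lef1 encode. For RUNX factors the words TGTGGTT and TGCGGTT were searched. PU.1, the main ETS-family factor of myeloid cells, was given the word GAGGAAGT, and other ETS factors CCGGAAGT and CAGGAAGT, so these overlap in their last 6 letters. Further words were AGATAA for GATA factors, CAGCTG and CACCTG for E-box factors, TTGCNNAA for CEBP factors and the core of the CTCF consensus. The RUNX and CTCF matches upstream of Bcl11b overlap. The sequences are those of the Lef1 region with the highest fold (chr3:131208636-131208736), a Bcl11b intronic region (chr12:107962014-107962114), the Bcl11b region upstream (chr12:108041720-108041820), the Tcf7 upstream region of highest fold (chr11:52297491-52297591) and the only region with a PU.1 word (Thy1, chr9:44035625-44035725).
Lef1 intron: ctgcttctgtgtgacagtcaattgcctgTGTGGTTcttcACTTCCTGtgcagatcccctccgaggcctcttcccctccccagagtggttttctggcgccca
Bcl11b intron: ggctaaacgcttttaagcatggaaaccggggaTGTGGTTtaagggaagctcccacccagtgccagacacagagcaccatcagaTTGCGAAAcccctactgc
Bcl11b upstream: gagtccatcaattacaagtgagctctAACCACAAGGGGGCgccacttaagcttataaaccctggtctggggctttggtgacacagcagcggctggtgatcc
Tcf7 upstream: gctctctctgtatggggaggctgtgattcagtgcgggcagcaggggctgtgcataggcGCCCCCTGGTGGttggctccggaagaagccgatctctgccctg
Thy1 upstream: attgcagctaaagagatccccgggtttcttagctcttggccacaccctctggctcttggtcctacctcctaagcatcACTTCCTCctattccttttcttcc

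Most of the 10 promoters had no region in the main series-level list, while a looser list held one for 6 of them. A promoter region, a summit within 1000 bp of any annotated transcription start site (TSS), was listed for 3 of the 10 genes (Cd3d, Cd28 and Thy1), against 62.7% of all protein-coding genes. At the TSS of the principal transcript alone, the one GENCODE tags as the main isoform, 2 of 10 were open (Cd28 and Thy1), against 59.0% of all genes. In the list of replicate 1 this count was 3, with Tcf7 added (57.6% of all genes), and in that of replicate 2 it was 1 (54.5%). At any annotated TSS the replicates gave 4 (61.4% of all genes) and 2 (58.1%). Each of these shares lies below that of all genes, on a count of 10. Cd28 was the only member open at its principal TSS in the lists of both replicates. These are bulk samples, so fewer cells with an open site and less opening per cell cannot be told apart.

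Cd28 held one of the stronger regions of the whole list at its start. The region on chromosome 1 from 60746106 to 60746567 had a fold enrichment of 15.5 in the series-level list, 15.3 in replicate 1 and 13.6 in replicate 2. Fold enrichment is the authors' value for a region, and 96.0% of all regions had a lower one. Its summit lay 29 bp downstream of the principal TSS, in an exon of Cd28, within its UTR. A weaker neighbour (60745557 to 60746005) sat 600 bp upstream, with a fold of 8.72, and was also in both replicates, at 8.84 and 7.06. The other regions of the Cd28 window had folds of 5.64 to 8.96. Of these, 3 were in both replicates (-77.2 kb, 57.7 kb and 65.8 kb from the principal TSS), 3 in replicate 1 only (-32.9 kb, -10.3 kb and 53.6 kb) and 1 in neither (57.3 kb).

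Thy1 was open at its start in 1 replicate. The region from 44043291 to 44044229 on chromosome 9 had a fold of 6.26 and was lower than most, with 27.2% of regions below it. Its summit lay 632 bp into the gene, in an intron. Replicate 1 listed it at 6.89, and replicate 2 only in its looser list, at 5.16. Upstream of Thy1 lay a chain of 7 regions between -37.9 kb and -7.71 kb, whose nearest protein-coding start was that of Thy1. Of these, 1 was in both replicates (-37.9 kb, fold 10.5), 4 in replicate 1 only and 2 in neither, with folds from 5.28 to 10.5. Of the 7, 6 overlay Gm39323, an annotated gene that codes for no protein in this annotation.

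The Cd3 cluster, 3 genes side by side on chromosome 9, had no region at any of its principal starts. The promoter region counted for Cd3d was at the other end of the gene. It ran from 44986220 to 44986859 with a fold of 15 (15.3 in replicate 1 and 13.0 in replicate 2), above 94.9% of all regions. Its summit lay 4.81 kb from the principal TSS, in an exon of Cd3d and within an annotated UTR. It counted as a promoter only through annotated starts other than the principal one, the nearest of them 644 bp away. A weak region further on (44987041 to 44987332, fold 4.97) was in neither replicate's list. The windows of the 3 Cd3 genes shared these regions and a pair near the start of the neighbouring gene Ube4a, whose own promoter had a fold of 13.4. Cd3e and Cd3g had no region in the gene body. The summit closest to the principal TSS was 22.4 kb away for Cd3e and 6.17 kb away for Cd3g, and in both cases it was one of the 2 at the end of Cd3d.

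The co-receptor genes lay at opposite ends of the range. Cd8a, a gene of 5747 bp on chromosome 6, had 1 region in its window, which equals 0.946 per 100 kb. It ran from 71418905 to 71419326 (fold 13.5; 12.2 in replicate 1 and 11.7 in replicate 2), 45.6 kb downstream in an intron of Rmnd5a. Cd4 had 19 regions, or 15.4 per 100 kb, more than 97.3% of genes. Of those, 10 were within 1000 bp of a TSS of another gene, among them Usp5, Gnb3, Lag3, Ptms and Mlf2, and only 3 had a Cd4 TSS as their nearest. Within Cd4 itself there were 2, both intronic, 13.7 kb and 13.2 kb from the principal TSS. The first (124874169 to 124874730) had a fold of 8.89, with 8.94 in replicate 1 and 6.45 in replicate 2. The second (fold 5.55) was in neither replicate's list. Cd4 had no promoter region in any list examined, the looser ones included, and neither did Cd8a, Cd3e or Cd3g.

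Of 4 regulatory elements known in T cells, 1 held a region within the distance allowed, which was 2 kb unless stated. Their positions relative to the principal TSS were taken from general knowledge of these loci. At the Cd4 silencer, the intronic element that keeps Cd4 off in CD8 T cells, stated at 2 kb, neither series-level list (the main or the looser) nor either replicate's list held a region, against 34.0% of genes in the main list. The E8I enhancer of Cd8a, stated at -16 kb, held none in the same lists (19.2% of genes). For Tcf7, the stated position at -31 kb held no region (18.9% of genes), although the looser series-level list had 1 there. The far downstream enhancer of Bcl11b, stated at 0.85 Mb, held 1 region within 10 kb, at 107148424 to 107148920 on chromosome 12 (summit at 854.9 kb; fold 8.43, with 8.92 and 6.88 in the replicates). At that distance and tolerance, 41.0% of genes had a region.

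**Figure D1:**
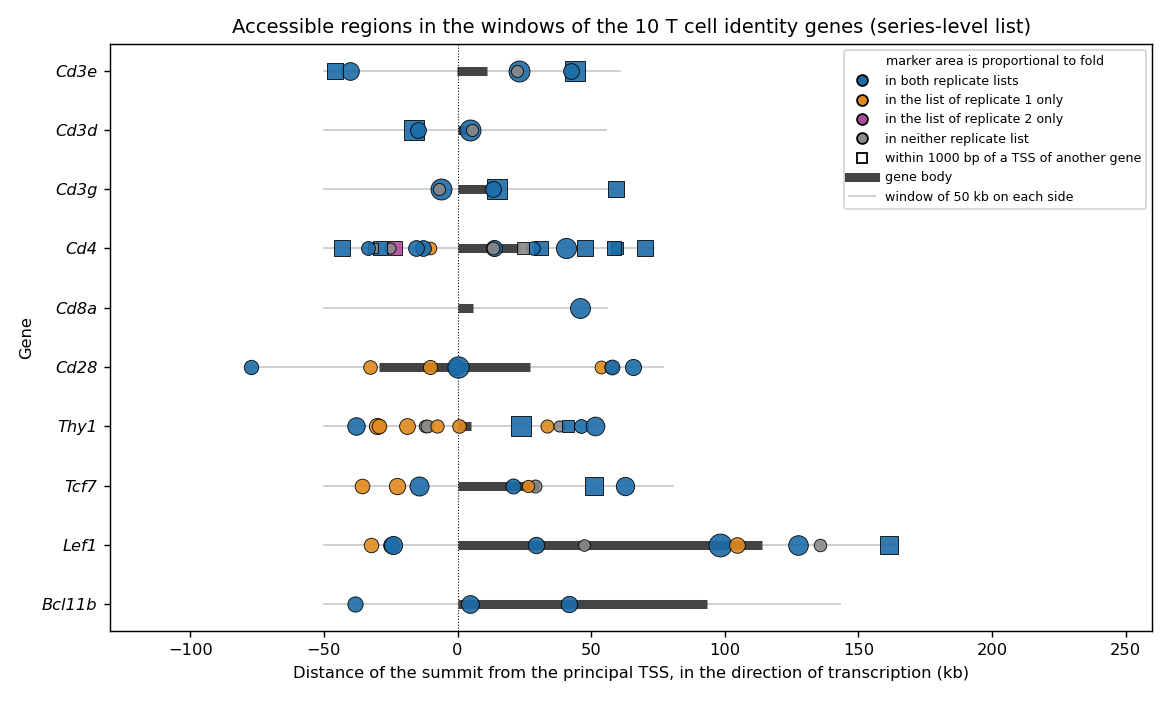
Each row is 1 gene, with its body as a dark bar and its window as a thin line; the x axis is the distance of each region's summit from the principal TSS in kb. Marker area is proportional to fold enrichment, colour shows which replicate lists hold the region, and squares are regions at a TSS of another gene. Cd28 and Thy1 have a region within 1 kb of 0, and Cd8a has 1 region in all.

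The 3 transcription factor genes had regions around and inside them, and none at a start in the main series-level list, the conservative one. Tcf7 had 8 regions, Lef1 10 and Bcl11b 3. Bcl11b, at 1.55 regions per 100 kb, had a density above that of 21% of genes. All 3 Bcl11b regions were in both replicates. They lay at -38.2 kb (fold 7.93; 8.51 and 5.83), at 4.68 kb in an intron (fold 10.7; 12.5 and 7.46) and at 41.5 kb in an intron (fold 9.15; 10.6 and 6.76). Like most window regions held by both lists, each had a higher fold in the list of replicate 1. The median fold over all regions was 9.08 in that list, against 7.74 in replicate 2.

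The Lef1 window carried the highest fold of all 71 regions. That region (131208409 to 131208969 on chromosome 3) lay in an intron 98.2 kb from the principal TSS, at a fold of 17.8, with 19 in replicate 1 and 14.7 in replicate 2. It exceeded 98.8% of all regions. Its central bases, shown above, hold a RUNX word and an ETS word 4 bases apart. An upstream pair at -25.0 kb and -24.3 kb (folds 8.36 and 11.3) was in both replicates, as was an intronic region at 29.4 kb (fold 9.21). The window also reached Hadh, where 1 region lay at the promoter (fold 10.8) and another in an intron (fold 13.1, in both replicates). A weaker region in an exon of Hadh (fold 5.34) was in the thresholded list of neither replicate. The nearest protein-coding TSS of the region of highest fold was that of Hadh, 63338 bp away. A Lef1 TSS was the nearest for 5 of the 10 regions of the window.

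Tcf7 was flanked by an upstream group of 3 regions. The strongest (52297417 to 52297773 on chromosome 11) lay at -14.5 kb with a fold of 12.4, with 13.0 in replicate 1 and 9.33 in replicate 2, and held a CTCF word. The other two, at -22.5 kb (fold 9.1) and -35.6 kb (fold 7.33), were in the list of replicate 1 only. Inside the gene, an intronic region at 20.9 kb (fold 7.66) was in both replicates.

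All 3 factor genes had a promoter region that did not reach that list. That list was cut by irreproducible discovery rate (IDR), which scores the repeatability of peak ranks. A second series-level IDR thresholded list, not the conservative one, held the Lef1 promoter region (fold 4.24), and there 4 of the 10 members were open, against 62.8% of all genes. In a looser list of replicated peaks without that cut, Tcf7 was open at a fold of 5.19, Lef1 at 4.24 and Bcl11b at 5.62. Replicate 1 alone listed Tcf7 at 6.7 in its thresholded list, and replicate 2 at 3.58 in its looser list. The Lef1 region was in the looser list of both replicates (4.71 and 3.7), and that of Bcl11b in replicate 1 only (7.42). The Lef1 values above belong to another annotated start. At its principal TSS the fold was 4.01 in the looser series-level list, with 4.44 and 3.25 in the looser lists of the replicates. The second IDR thresholded list held no region at the principal TSS of Lef1. With the looser list, 6 of the 10 members had a promoter region, against 70.4% of all genes, and 5 had one at the principal TSS, against 67.0%.

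**Figure D2:**
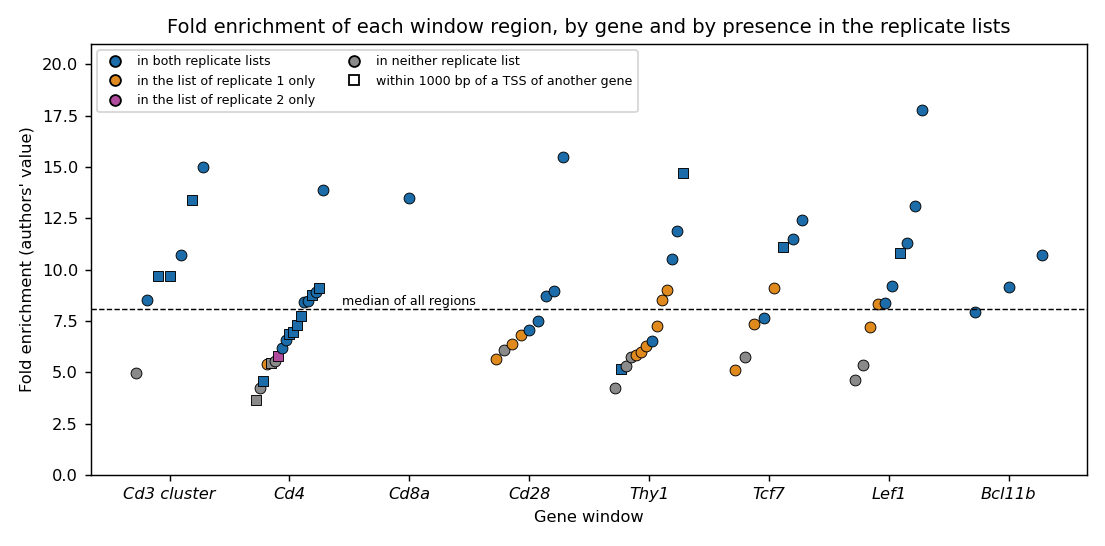
Each point is 1 region of the windows (the 3 Cd3 genes share a column), with fold enrichment on the y axis; colour shows the replicate lists that hold it, squares are regions at a TSS of another gene, and the dashed line is the median of all 75148 regions. Points range from 3.66 to 17.8, and regions in neither replicate list lie below the median.

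The promoters of the members differed in CpG content. Among the members, 7 matched an entry in the RefSeq promoter table (GRCm38.p6), and Cd4, Cd28 and Thy1 did not. The members open at the principal TSS, Cd28 and Thy1, are therefore not covered here. The ratio of observed to expected CpG was 0.0774 for Cd3d, 0.183 for Cd3g, 0.198 for Cd8a and 0.333 for Cd3e, and it was 0.62 for Lef1, 0.652 for Bcl11b and 1.03 for Tcf7. The entry used for Bcl11b lies 188 bp from the principal TSS, and that of Lef1 148 bp, so their values describe those starts. Among 7651 genes with a CpG-rich promoter (a ratio of at least 0.6 and a GC content of at least 50%), 90.0% were open at the principal TSS, against 35.2% of the 8191 others. Tcf7 and Lef1 were CpG-rich and were not open in the series-level list. In the looser list 96.4% of CpG-rich promoters were open, both of these included. The CpG-rich genes were 48.3% of the 15842 matched, and 2 of the 7 matched members. Bcl11b met the ratio but had a GC content of 43.0%, so it counted among the others. The 100 bases before the RefSeq start of Cd8a (chr6:71373327-71373426), Cd3d (chr9:44981686-44981785) and Lef1 (chr3:131110223-131110322), each on the plus strand, show the contrast, with each CpG in capitals.
Cd8a promoter: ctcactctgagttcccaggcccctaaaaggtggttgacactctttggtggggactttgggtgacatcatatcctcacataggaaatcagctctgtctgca
Cd3d promoter: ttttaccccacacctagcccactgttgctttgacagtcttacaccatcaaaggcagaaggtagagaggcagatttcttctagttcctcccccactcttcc
Lef1 promoter: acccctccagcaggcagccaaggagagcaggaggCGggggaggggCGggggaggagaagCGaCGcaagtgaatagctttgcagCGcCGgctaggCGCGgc
The stretch before Lef1 held 8 CpG, and those before Cd8a and Cd3d held 0.

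**Figure D3:**
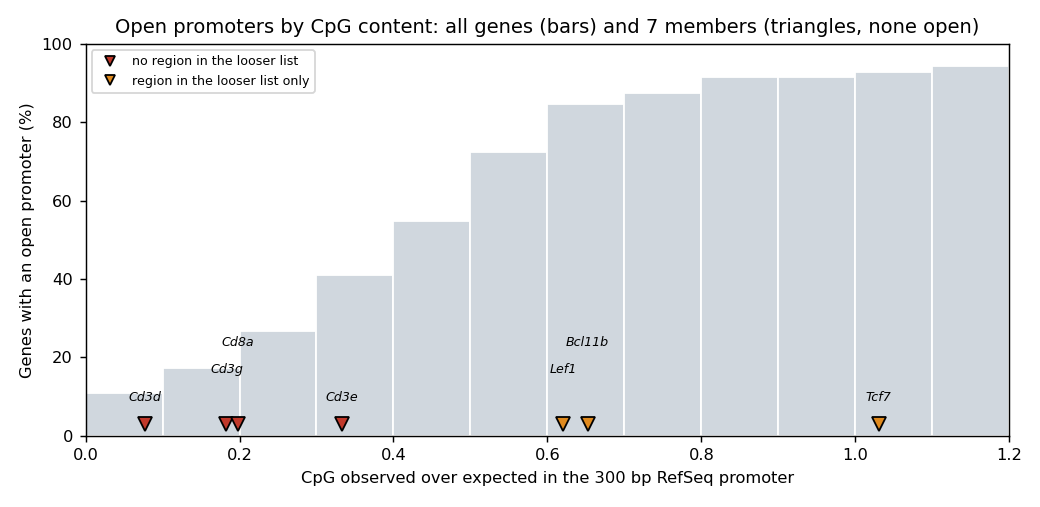
Bars give the percentage of protein-coding genes with a region at the principal TSS, by the ratio of observed to expected CpG in the RefSeq promoter, and rise from 10.8% to 94.5%. Triangles mark the ratio of 7 members, none of them open at the principal TSS in the series-level list. Lef1, Bcl11b and Tcf7 had a region in the looser list. Cd28 and Thy1, the members open at the principal TSS, had no entry and are not shown.

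In fold, the 71 regions were spread on both sides of the median of all regions. Their median fold was 7.75, from 3.66 to 17.8, against a median of 8.09 over all regions, and 34 of 71 lay at or above it. Of the 71, 35 had their summit in an intron, 21 between genes and 15 in an exon, of any annotated gene. These classes were not counted over all regions, so no comparison is made. A start of another gene lay within 1000 bp for 17, which leaves 54. Counting the members' own starts too, 21 of 71 (29.6%) lay that close to a protein-coding start, against 23.2% of all regions. By nearest protein-coding TSS, 34 belonged to a member. The median width was 428 bp, against 473 bp over all regions.

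Presence in the replicate lists leaned towards replicate 1. Of the 71 regions, 43 (60.6%) were in both lists, against 66.1% of all regions. A further 15 were in replicate 1 only (15.8% of all regions), 1 in replicate 2 only (3.35%) and 12 in neither (14.7%). Of the 17 at a start of another gene 14 were in both lists, and of the remaining 54, 29 were, with 15 in replicate 1 only and none in replicate 2 only. The same split was not computed over all regions, so it is not read as a trait of these windows. Over 1000 bp from any protein-coding TSS, 26 of 50 window regions (52.0%) were in both lists, against 61.6% of all such regions. Among regions below the median fold of all regions 13 of 37 were in both lists, against 41.9% of all such regions, and at or above it 30 of 34, against 90.2%. In the looser lists, 70 of 71 were in both replicates, against 97.1% of all regions. Leaving out replicate 2, the list of replicate 1 alone gave 61 regions in the windows and leaving out replicate 1, that of replicate 2 gave 44. Replicate 1 had the longer list, with 65423 regions against 53686, and the part of list length in this difference was not tested.

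Density around the members spanned a wide range. The median was 5.04 regions per 100 kb of window, against 5.39 over all genes, and 5 of the 10 lay below that median. Cd4 (15.4) and Thy1 (13.3) were the dense windows, and Cd8a (0.946) and Bcl11b (1.55) the sparse ones. The other 6 lay between 3.79 and 6.12. At least 1 region was found in the window of every member, as for 86.6% of all genes.

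**Figure D4:**
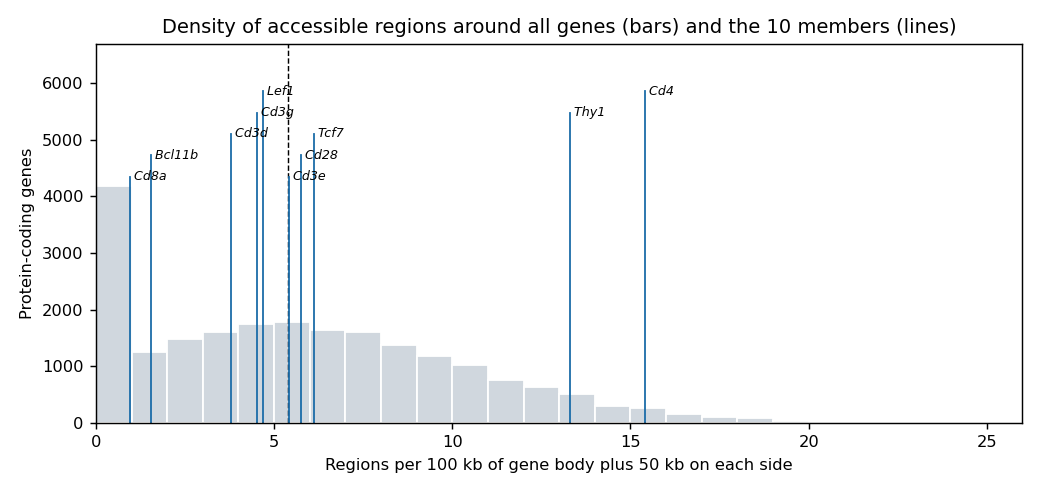
Bars count protein-coding genes by the number of regions per 100 kb of gene body plus 50 kb on each side, with the dashed line at their median of 5.39. Lines mark the 10 members, from 0.946 for Cd8a to 15.4 for Cd4.

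Among the words searched, RUNX was the most frequent at these summits and TCF/LEF was not found. The TCF/LEF word, to which TCF-1 and LEF-1 bind, was in 0 of the 71, against 2.25% of all regions. RUNX words were in 10 of 71 (14.1%), against 7.07%. They lay at Bcl11b (2 of its 3 regions), Lef1 (2), Tcf7 (2, of which 1 at the promoter of Skp1a), Thy1 (3, of which 1 at a promoter of Usp2) and beyond Cd3e (1, at the promoter of Mpzl3). The PU.1 word, bound by the main factor of myeloid cells, was in 1 of 71 (1.41%), against 7.54%. CEBP words were in 5 of 71 (7.04% against 9.27%), ETS words in 4 (5.63% against 6.05%), GATA words in 1 (1.41% against 3.11%) and E-box words in 6 (8.45% against 12.8%). CTCF words were in 9 of 71 (12.7% against 8.31%). A shorter CTCF word chosen first lacks 1 position of the consensus, and it was in 0 of 71 (0.818% of all regions). A match describes these letters only, and with 71 windows 1 match moves a share by over 1 percentage point.

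Beyond the 10 members, promoters of the wider T cell programme were open in a share below that of all genes in the main series-level list. Of 40 further genes, 22 (55.0%) had a promoter region, against 62.7% of all genes, and 19 (47.5%) had one at the principal TSS, against 59.0%. The looser series-level list brought the share close to that of all genes, with 28 of 40 against 70.4%. At the principal TSS that list gave 25 of 40, against 67.0%. Transcription factor genes were open in 10 of 12, receptor signalling genes in 5 of 9, genes of survival and homing in 3 of 6 and surface and costimulation genes in 4 of 9. The genes of V(D)J recombination and the pre-T cell receptor (Rag1, Rag2, Ptcra and Dntt) were open in 0 of 4, and Rag1 had a region in the looser list (fold 3.8).

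In 19 of the 40 genes the promoter was open in the series-level list and in each replicate (57.5% of all genes were). The highest folds were those of Foxp3 (regulatory T cell factor; 14.8), Il7r (IL-7 receptor, needed by lymphocyte precursors; 13.9), Fyn (Src family kinase; 13.5), Ets1 (ETS factor; 13.5) and Runx3 (RUNX factor of CD8 T cells; 13.3). They were followed by Cd40lg (CD40 ligand; 11.4), Tox (HMG factor of thymocytes; 11.3), Lat (adaptor of the T cell receptor; 11.2), Lck (the kinase bound to CD4 and CD8; 11.1) and Cd5 (a surface inhibitor of receptor signalling; 10.7). Foxp3 and Lck had no region at the principal TSS. For Tox and Ets1 the values above belong to another annotated start, and at the principal TSS their folds were 7.85 and 12. At their own annotated starts, the T cell receptor constant genes Trac, Trbc1, Trbc2 and Trdc had no region in the main or the looser series-level list. The thresholded list of either replicate held none there. Other starts of the receptor loci were not examined, so these counts do not describe the promoters of the whole loci. Trdc had no region in its window, and Trac had 8.

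Lists of other cell types put these counts in place. Of 14 GMP and myeloid marker genes 13 were open at a promoter, and Prtn3 had a region in replicate 1 and in the looser list only. Mpo (fold 5.5), Elane (6.84) and Cebpa (8.46) were open in both replicates. Of 15 B cell genes 8 were open (53.3%) and of 7 NK cell genes 5 (71.4%), against 62.7% of all protein-coding genes. At the principal TSS the counts were 13, 5 and 4, against 59.0% of all genes. The median density was 12.3 regions per 100 kb around the GMP and myeloid genes, 8.59 around the B cell genes, 7.93 around the NK cell genes and 7.39 around the 40 T cell programme genes, against 5.04 around the 10 members. Whether cells of other types contributed to the member regions was not tested. Of the T cell markers, Cd28 had a promoter region in the thresholded lists of both replicates and Thy1 and Tcf7 in that of replicate 1. Cd3d had one in both replicates only by a start other than the principal TSS, which lay 4.81 kb from that region. Cd3e, Cd3g, Cd4, Cd8a, Lef1 and Bcl11b had none in the thresholded list of either replicate. The looser lists held one for Lef1 in both replicates and for Bcl11b in replicate 1.

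**Figure D5:**
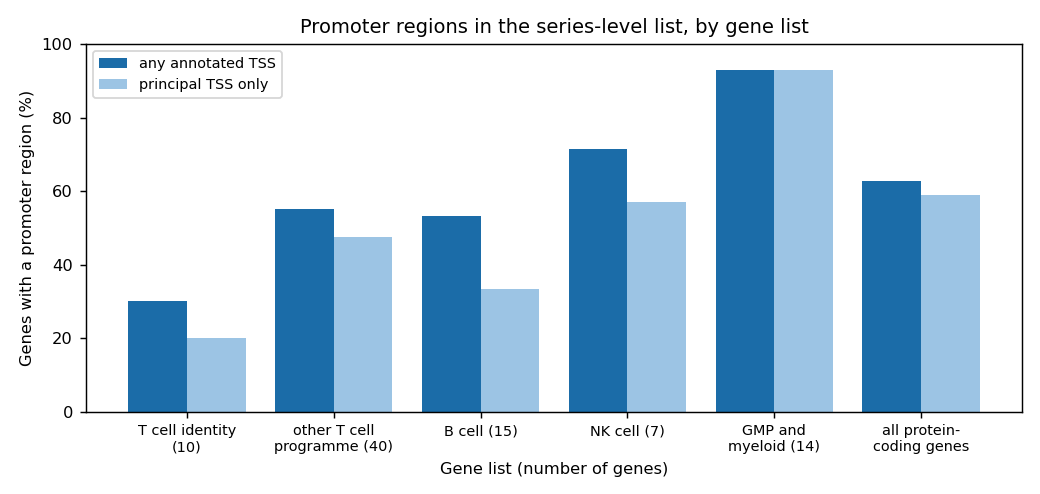
Bars give the percentage of genes in each list with a promoter region, at any annotated TSS (dark) or at the principal TSS only (light). The T cell identity genes stand at 30.0% and 20%, below all protein-coding genes at 62.7% and 59.0%.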

How the data were processed

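ATAC-seq peak lists of 2 GMP replicates were used, on mm10 per the labels. The authors deposited a fold enrichment ratio and a summit for each row; the sources used here do not name its denominator, the aligner, the peak caller or any Tn5 shift. Files give no read counts, so depth is unknown and no interval was computed. The main list was the conservative IDR thresholded list of both replicates (109712 rows). Rows sharing 1 bp or more were merged, keeping the summit of the highest fold, which gave 75148 regions; each replicate's own thresholded list was merged likewise. In a ranked list, 8 columns of single-replicate values were not used.

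Genes and TSSs came from GENCODE vM21 (GRCm38, the chromosomes of mm10; all 75148 regions lie inside them), and bases from the GRCm38.p6 RefSeq genome. 1 element and its sequence are not reported here. Principal TSSs are those tagged APPRIS principal. Of 5 receptor constant genes listed, 4 matched. Python 3.11.15, pandas 2.3.3 and pysam 0.24.0 were used, and merging and overlaps were tested on simulated regions. All 10 members are named; of the further T cell genes, the 10 highest folds open in both replicates. Members, lists, elements and words were chosen with earlier results of these data known. The principal TSS, the longer CTCF word and the removal of other genes' promoters were chosen after seeing the data.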

Additional observations from a re-analysis of the deposited data

How the results depend on the processing

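Results rest on lists of regions, so a region that is absent only failed a threshold, and depth is unknown. In the looser series-level list, the windows held 122 regions with a median fold of 5.63, and 6 members had a promoter region. Among regions at or above the median fold there were 34 regions, with a median of 10.1, and 14 pathway genes were open. A window of 10 kb held 24 regions (13 in both replicates) and one of 100 kb held 131 (80 in both). Counting only regions whose nearest TSS is a member's gave 34, of which 16 were in both replicates. With each replicate's looser list, 70 regions were in both. With 1 replicate left out, the count of regions ran from 44 (without replicate 1) to 61, the median fold from 7.56 to 8.84, members with a promoter region from 2 to 4 and pathway genes from 19 to 21. Presence in both lists needs both replicates, so leaving 1 out gives no value for it. Of the 44 alternatives run, 28 left the count within 1.5 times its value or the median fold within the SD of the replicate medians, and 16 did not; the cause was not tested. No paired analysis was possible because the series has 1 group.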
